A study of Mus musculus with 35 samples.

Results

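The genes described here are 34 mouse genes of the nuclear pore and of transport through it: Nup98 itself, 29 other genes of the pore and its partners, and 4 genes of the transport machinery (Xpo1, Nxf1, Ran and Kpnb1). They were taken by name, and a gene counted as measured where its normalized count reached 10 in 3 or more libraries. All 34 were found among the 24462 features of the expression table and all 34 passed this filter, which kept 12687 features. The samples were bone marrow cells sorted for GFP and CD45.2 from C57BL/6 mice that had received transplants of cells with regulatable expression of 1 of 3 fusion genes, NUP98-DDX10, NUP98-JARID1A or NUP98-NSD1. For each fusion, 4 libraries came from mice left untreated (1 titled day 3 and 3 titled day 5), 3 from mice given doxycycline at 4 mg/ml for 3 days and 3 from mice given it for 5 days. The other 3 of the 33 RNA libraries are titled as controls. The control labels name every fusion and no treatment, so the genotype of these cells is not known from them. The labels give neither an age nor the number of founding leukemias, and they do not tie libraries to animals, so every p-value below measures only the spread between these libraries, which may be technical in part.

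The nuclear pore is a ring-shaped channel through the nuclear envelope, built from many copies of proteins called nucleoporins. Scaffold nucleoporins form stacked rings, and nucleoporins rich in phenylalanine-glycine (FG) repeats fill the channel and bind the transport receptors that carry proteins and RNA across. NUP98 is one of these FG nucleoporins. In a group of acute myeloid leukemias a chromosome break joins its FG-repeat portion to another protein such as DDX10, the histone demethylase JARID1A or the histone methyltransferase NSD1. Nup98 binds Rae1, which takes part in messenger RNA export, and the exportin Xpo1 has been described as a binding partner of NUP98 fusions.

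The promoters of 4 members that carry most of the results are shown so that their sequence can be read beside their expression: Nup98, Nup210 (the gene with the lowest day 5 change), Nup62 (raised in all untreated leukemias) and Tpr (whose change differed most clearly in sign between fusions). Each runs 5′ to 3′ on the gene's own strand, from 250 bases before to 50 bases after a RefSeq start in build GRCm38.p6. Capitals mark matches, on either strand, to CCAAT (bound by NF-Y), CACGTG (an E-box that reads the same on both strands and is bound by MYC among others), TTCCCGC and TTGGCGC (both E2F-type) and GCATGCG (NRF1-type).
Nup98, chr7:102210117-102210416, minus strand: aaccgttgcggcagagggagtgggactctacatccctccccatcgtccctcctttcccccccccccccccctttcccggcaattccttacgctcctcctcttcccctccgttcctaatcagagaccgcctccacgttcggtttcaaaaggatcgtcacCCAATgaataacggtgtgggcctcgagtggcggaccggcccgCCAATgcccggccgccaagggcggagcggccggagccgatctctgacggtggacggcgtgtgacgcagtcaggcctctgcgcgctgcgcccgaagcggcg
Nup210, chr6:91116777-91117076, minus strand: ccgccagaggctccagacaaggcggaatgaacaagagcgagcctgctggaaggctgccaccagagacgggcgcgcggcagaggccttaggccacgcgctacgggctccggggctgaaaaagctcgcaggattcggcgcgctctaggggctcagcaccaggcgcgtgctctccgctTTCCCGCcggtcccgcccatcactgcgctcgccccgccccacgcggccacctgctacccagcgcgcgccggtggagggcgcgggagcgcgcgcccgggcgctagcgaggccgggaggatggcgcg
Nup62, chr7:44815838-44816137, plus strand: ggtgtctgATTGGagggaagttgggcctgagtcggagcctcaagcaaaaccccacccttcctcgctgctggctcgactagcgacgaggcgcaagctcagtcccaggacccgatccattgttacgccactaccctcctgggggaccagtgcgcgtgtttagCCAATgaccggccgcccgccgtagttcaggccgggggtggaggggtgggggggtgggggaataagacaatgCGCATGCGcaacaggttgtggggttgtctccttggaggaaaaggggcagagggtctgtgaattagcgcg
Tpr, chr1:150392588-150392887, plus strand: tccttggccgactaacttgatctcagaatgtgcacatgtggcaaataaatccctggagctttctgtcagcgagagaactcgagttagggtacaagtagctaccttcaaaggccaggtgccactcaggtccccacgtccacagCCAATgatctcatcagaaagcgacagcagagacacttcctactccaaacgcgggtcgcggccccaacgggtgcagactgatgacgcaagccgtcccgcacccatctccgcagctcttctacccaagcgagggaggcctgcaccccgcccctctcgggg
The Nup98 window holds 2 CCAAT matches, the Nup210 window 1 TTCCCGC match, the Tpr window 1 CCAAT match and the Nup62 window 2 CCAAT matches and an 8-base stretch that matches GCATGCG on both strands. Nup98 has a second RefSeq start further downstream, whose window has 0 matches. The annotated Nup210 gene begins upstream of the window shown, at base 91118322, and the sequence there is not shown. RefSeq promoter entries were found for 30 of the 34 members; Nup85, Nup43, Nup35 and Seh1l had none. CCAAT was present for 12 of the 30 members (40%) and for 43.3% of the 10158 measured genes with an entry. CACGTG was present for 5 (16.7%, against 11.7%), TTCCCGC for 3 (10%, against 9.75%), TTGGCGC for 0 (against 4.88%) and GCATGCG for 5 (16.7%, against 7.18%). These shares describe letters in a window and were not tested.

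Depth was between 12043487 and 28903870 reads in genes per library. The fusion genes have features of their own in the table, and each model's own fusion fell with doxycycline: NUP98-DDX10 from 9003 to 14121 normalized counts in untreated libraries to 3.2 to 8.0 under doxycycline, NUP98-JARID1A from 3042 to 3489 down to 60.2 to 100.3, and NUP98-NSD1 from 52599 to 58498 down to 40.3 to 58.1. The eGFP feature fell too, in NUP98-DDX10 from 7444.8 to 14452.9 down to 1.1 to 7.3. In NUP98-JARID1A it fell from 9450.4 to 12505.6 down to 294.2 to 400.4. In NUP98-NSD1 it fell from 15334.9 to 17734.7 down to 11.4 to 20.6, and the controls held 13.9, 210.3 and 14.3. GFP is also named for the sort, and its part in which cells were collected was not tested. The control libraries stand apart from the rest: they hold 2.5, 72.0 and 18.2 normalized counts of the NUP98-JARID1A feature, and their summed levels of 10 B cell markers (21430 to 109300, against 1075 to 1643 in untreated NUP98-JARID1A libraries) and of 10 neutrophil markers (273900 to 3433000, against 199000 to 251400) differed widely. Untreated against control values below therefore compare cell populations of different make-up, and fusion and cell type cannot be told apart in them. In bulk RNA, fewer cells of a type and less RNA per cell cannot be told apart in any comparison here.

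Nup98 encodes a nucleoporin of the channel that also moves within the nucleus. Its level was highest in the NUP98-JARID1A leukemias, and its ranges before and during doxycycline overlapped there. In untreated NUP98-JARID1A libraries Nup98 stood at 3364, 4361, 3879 and 4668 normalized counts, with a group mean of 4068 ± 571 (SD, n = 4). At day 3 of doxycycline it stood at 4064, 3707 and 3888, and at day 5 at 3764, 3777 and 3874. These 3 groups overlap. In the NUP98-DDX10 leukemias Nup98 was at 3079, 2698, 2259.8 and 2350.4 untreated, 2516, 2721 and 2259 at day 3 and 2196, 2333 and 2139.5 at day 5. The NUP98-NSD1 leukemias had 2445, 2418, 2329 and 2476 untreated, 2096, 2298 and 2542 at day 3 and 2103, 2333 and 2319 at day 5, and the controls 2176, 2091 and 2840.3. Every NUP98-JARID1A library was above every library of the other groups, while the control, NUP98-DDX10 and NUP98-NSD1 libraries shared one range.

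**Figure D1:**
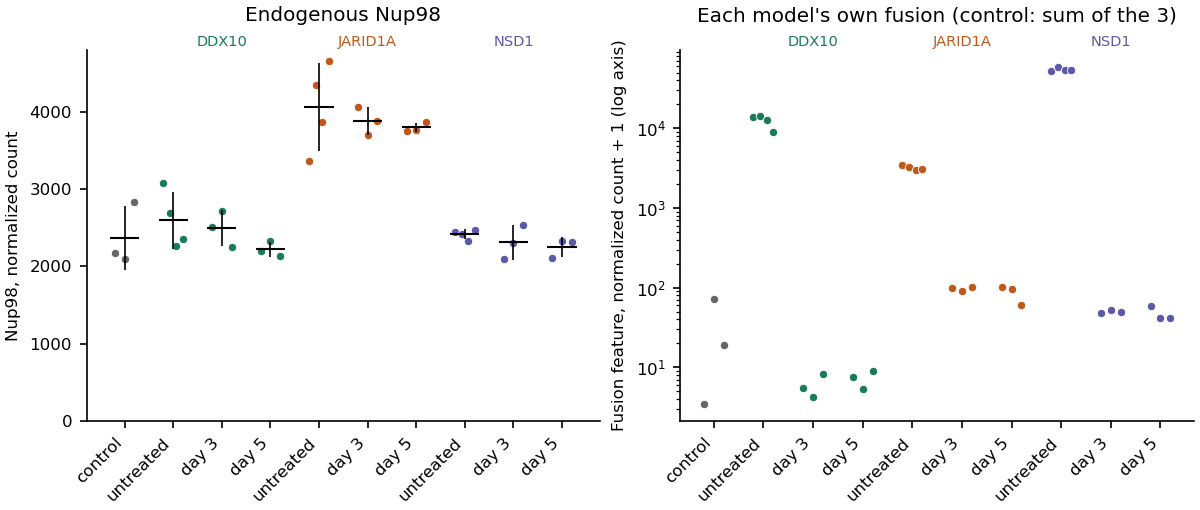
Nup98 (left, linear axis from 0) and each model's own fusion feature (right, log axis, normalized count + 1; for controls the sum of the 3 fusion features) in all 33 libraries, 1 point per library, with the mean (bar) and SD (line) on the left. The 10 NUP98-JARID1A libraries hold 3364 to 4668 normalized counts of Nup98, above the 20 other fusion libraries (2096 to 3079); the fusion features fall under doxycycline, and no Nup98 change at day 3 or day 5 passed the threshold.

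The doxycycline changes of Nup98 were small on the log2 scale, and none passed the threshold (adjusted p below 0.05, limma with Benjamini-Hochberg adjustment over all 12687 features). At day 5 the log2 fold change was -0.21 ± 0.11, adjusted p = 0.204 (estimate ± SE) for NUP98-DDX10, -0.09 ± 0.11, adjusted p = 0.574 for NUP98-JARID1A and -0.10 ± 0.11, adjusted p = 0.563 for NUP98-NSD1. The mean over the 3 fusions was -0.13 ± 0.06, adjusted p = 0.0901 at day 5 and -0.06 ± 0.06, adjusted p = 0.602 at day 3. After quantile normalization the NUP98-JARID1A day 5 change was -0.28 and passed the threshold (adjusted p = 0.0443). The day 5 mean passed it after quantile normalization (-0.24, adjusted p = 0.00252), without control replicate 3 (-0.13, adjusted p = 0.0488) and without the untreated NUP98-JARID1A library titled day 3 (-0.16, adjusted p = 0.0315). No difference between fusions in the Nup98 change was found at day 3 (F-test adjusted p = 0.999) or day 5 (adjusted p = 0.777). Whether reads from the NUP98 portion of a fusion transcript could be counted to Nup98 is not given in the sources used here.

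Between the untreated leukemias Nup98 differed (F-test adjusted p = 8.63e-07), with the lowest p of the 34 members save Sec13. In pairwise contrasts added after this F-test was seen, NUP98-JARID1A exceeded NUP98-DDX10 by 0.65 ± 0.10 (adjusted p = 1.17e-05) and NUP98-NSD1 by 0.74 ± 0.10 (adjusted p = 9.45e-07) on the log2 scale, and NUP98-NSD1 and NUP98-DDX10 differed by -0.09 ± 0.10 (adjusted p = 0.494). Over treated and untreated libraries together, Nup98 was the 1 of 34 members for which all 10 NUP98-JARID1A libraries lay above all 20 other fusion libraries. Of all features, 4.54% did so. Seh1l and Sec13, both of the Y complex, were the 2 members for which all 10 lay below, as did 3.14% of all features. Sec13 stood at 1178, 1037, 974 and 928 in untreated NUP98-JARID1A libraries, 1412, 1509.5, 1536 and 1653 in NUP98-DDX10 and 1388, 1504, 1584 and 1399.9 in NUP98-NSD1. Seh1l stood at 1152, 899, 903 and 980.1, 1230.3, 1269, 1396 and 1206 and 1491, 1366, 1453 and 1450.0 in the same order. For both genes the NUP98-JARID1A libraries formed a separate lower range. Nup98 shares 149 exon bases (1.81% of its exons) with Pgap2 on the opposite strand, and the sources used here do not say if reads were counted by strand.

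At day 5 of doxycycline, over the mean of the 3 fusions, 0 of 34 members rose and 19 fell, where 22.6% of all features rose and 23.4% fell. The members' median log2 fold change was -0.16, against -0.0037 for all features. In NUP98-JARID1A, 0 members rose and 21 fell (20.1% and 21.2% of all features), with a median of -0.40. In NUP98-NSD1, 0 rose and 4 fell (13.5% and 11.9% of all features; median -0.12), and in NUP98-DDX10, 2 rose and 2 fell (6.49% and 8.64%; median 0.05). When the mean was taken over NUP98-DDX10 and NUP98-NSD1 alone, an alternative added after the values were seen, 2 members rose and 5 fell. These counts per model depend on fitting all 33 libraries at once. When each model was fitted on its own 7 libraries, 0 members rose and 10 fell in NUP98-JARID1A, 0 rose and 10 fell in NUP98-NSD1, and 4 rose and 3 fell in NUP98-DDX10. After quantile normalization 10 members fell in NUP98-NSD1 and 0 rose. The share of all features called in these alternative fits is not given, so their counts cannot be set against a background.

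**Figure D2:**
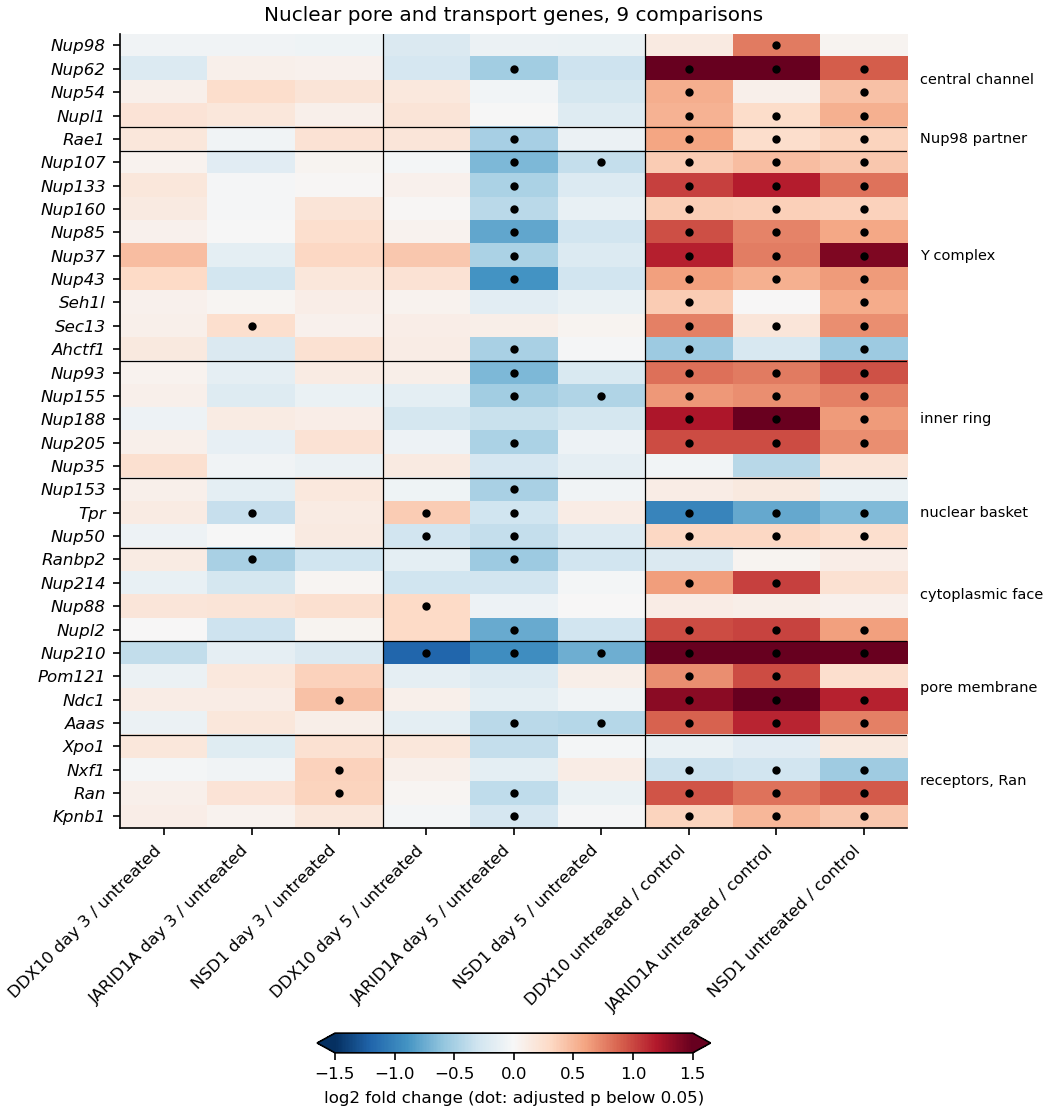
Log2 fold changes (colour, limits at -1.5 and 1.5) of the 34 members, ordered by role, in 9 comparisons; a black dot marks an adjusted p below 0.05. The NUP98-JARID1A day 5 column holds 21 dots, all on lower values, and in the 3 columns against control 23 to 25 members per fusion are higher.

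Nup210 showed the lowest day 5 value of all members. It encodes a transmembrane nucleoporin of the pore membrane known for differing between tissues. In NUP98-DDX10 libraries Nup210 went from 21131, 16768, 14142 and 14842 normalized counts untreated to 12101, 15401 and 11304 at day 3 and 8029.7, 7551 and 6313 at day 5. The NUP98-JARID1A libraries had 8187, 12049, 12411 and 13168 untreated, then 12876, 9001 and 9343 at day 3 and 4795, 6698 and 6393 at day 5, and the NUP98-NSD1 libraries 10131, 10886, 10872 and 10841, 9148, 8639.6 and 9729.9 and 4866, 7578 and 7202. All day 5 libraries lay below all untreated libraries of their own model, and all but 1 (4795) lay above the controls at 3538, 3299 and 4806. Nup210 was the 1 member that fell past the threshold at day 5 in all 3 models, by -1.19 ± 0.18 (adjusted p = 4.83e-05) in NUP98-DDX10, -0.93 ± 0.18 (adjusted p = 0.000149) in NUP98-JARID1A and -0.73 ± 0.18 (adjusted p = 0.00321) in NUP98-NSD1. The mean change was -0.95 ± 0.10, adjusted p = 2.38e-08, with no difference between fusions found (F-test adjusted p = 0.367). Of its exon bases, 12.7% are shared with the predicted gene Gm30364 on the other strand.

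The other members that fell at day 5 in the mean came from every ring of the pore. Of the 9 genes of the Y complex, the branched unit that forms the outer rings, 5 fell: Nup107 (-0.36 ± 0.07, adjusted p = 0.000171), Nup85 (-0.34 ± 0.07, adjusted p = 0.000182), Nup43 (-0.32 ± 0.08, adjusted p = 0.00194), Nup133 (-0.21 ± 0.05, adjusted p = 0.00135) and Nup160 (-0.17 ± 0.06, adjusted p = 0.0273). Nup160 lost its call with a replicate block (adjusted p = 0.0612), with untreated libraries titled day 5 only (0.0826), without the untreated NUP98-JARID1A replicate 1 (adjusted p = 0.0503) and without NUP98-JARID1A day 5 replicate 3 (adjusted p = 0.0914). Of the 5 inner ring genes, which anchor the ring to the membrane and the channel proteins, 4 fell: Nup155 (-0.37 ± 0.07, adjusted p = 5.62e-05), Nup205 (-0.21 ± 0.05, adjusted p = 0.00156), Nup93 (-0.27 ± 0.07, adjusted p = 0.00189) and Nup188 (-0.29 ± 0.08, adjusted p = 0.00467). Nup35, the fifth, had a log2 fold change of -0.08 ± 0.14. Among the FG nucleoporins of the channel, Nup62 fell (-0.36 ± 0.08, adjusted p = 0.000542), and Nup98, Nup54 (-0.05 ± 0.09) and Nupl1 (0.00 ± 0.06) did not pass.

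In the nuclear basket, the filaments on the nuclear side, Nup50 (-0.28 ± 0.05, adjusted p = 8.79e-05) and Nup153 (-0.20 ± 0.06, adjusted p = 0.0121) fell, and Tpr was at 0.06 ± 0.06. On the cytoplasmic face, Ranbp2 (-0.33 ± 0.09, adjusted p = 0.0057) and Nupl2 (-0.25 ± 0.09, adjusted p = 0.0232) fell, while Nup214 (-0.21 ± 0.09) and Nup88 (0.08 ± 0.05) did not pass. Nupl2 lost its call after quantile normalization (adjusted p = 0.0998), with untreated libraries titled day 5 only (0.113), without NUP98-DDX10 day 5 replicate 3 (adjusted p = 0.0758), without NUP98-JARID1A day 5 replicate 2 (adjusted p = 0.0536) and without NUP98-NSD1 day 5 replicate 2 (adjusted p = 0.0631). Of the pore membrane genes, Aaas fell beside Nup210 (-0.33 ± 0.09, adjusted p = 0.00421), and Pom121 (-0.08 ± 0.11) and Ndc1 (-0.04 ± 0.08) did not pass. Of the transport genes, Ran, the GTPase that sets the direction of transport (-0.15 ± 0.05, adjusted p = 0.0215), and Kpnb1, the importin that carries classical cargo inward (-0.10 ± 0.04, adjusted p = 0.0364), fell. Xpo1 (-0.07 ± 0.11) and the messenger RNA export receptor Nxf1 (0.02 ± 0.05) did not pass. Ran lost its call with untreated libraries titled day 5 only (adjusted p = 0.0698), and without NUP98-JARID1A day 5 replicate 3 (adjusted p = 0.0714) or NUP98-NSD1 day 5 replicate 2 (adjusted p = 0.0718), and Kpnb1 lost it without the filter (0.0592), with a replicate block (0.0663) and in 8 of the 33 fits that each left out 1 library (highest adjusted p = 0.0903). Those were untreated replicates 1 and 2 and day 5 replicate 1 of NUP98-DDX10, untreated replicate 3 and day 5 replicate 3 of NUP98-JARID1A, and the untreated library titled day 3, untreated replicate 2 and day 5 replicate 2 of NUP98-NSD1.

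In NUP98-JARID1A at day 5 the lowest values belonged to Nup210, Nup43, Nup85 and Nupl2. Nup85, a Y complex scaffold, stood at 1140.4, 1084, 1096 and 1107 untreated and at 618, 690.2 and 634 at day 5, a log2 fold change of -0.77 ± 0.12, adjusted p = 5.59e-06. Nup43, a small Y complex subunit, went from 337, 342, 289 and 318 to 244, 145 and 144 (-0.90 ± 0.14, adjusted p = 9.69e-06). Rae1, the Nup98 partner, went from 1110.0, 873, 922 and 849 to 659, 715 and 609 (-0.50 ± 0.08, adjusted p = 2.39e-05). In each of these 3 genes all day 5 libraries were below all untreated ones, while at day 3 Rae1 (846, 947 and 917) and Nup85 (1201, 1087 and 1026) still overlapped the untreated range. Here and in the other doxycycline and control comparisons, the share of all features without overlap is not given. In this model all day 5 libraries also lay below all untreated ones for Nup62, Nup107, Nup133, Nup93, Nup205, Nup153, Nup50, Nupl2, Nup210, Ran and Kpnb1. Nup98 sat apart from most members here: its change of -0.09 ± 0.11 was above that of 29 of the 33 others, whose median was -0.41 and range -0.93 to 0.08. Same-numbered untreated and day 5 libraries of this model deviated together, and with a replicate block 20 members fell: Ahctf1 lost its call (adjusted p = 0.0508). Among the 21 that fell, 6 lost their call without 1 NUP98-JARID1A library or another: Nup160, Nup37, Ahctf1, Tpr, Ranbp2 and Aaas. Without NUP98-JARID1A day 5 replicate 3, 16 members fell; the adjusted p was then 0.0611 for Nup160, 0.27 for Nup37, 0.154 for Ahctf1, 0.111 for Tpr and 0.139 for Ranbp2. Aaas lost its call without untreated replicate 2 (adjusted p = 0.0911), untreated replicate 3 (0.102) or day 5 replicate 1 (0.279). The call also ended for Nup37 without the untreated library titled day 3 (0.0767), and for Ahctf1 (0.0853) and Tpr (0.131) without day 5 replicate 2.

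Other gene groups moved in the same NUP98-JARID1A libraries. At day 5 the shares of all features that rose and fell were 20.1% and 21.2% in this model. They were 13.5% and 11.9% in NUP98-NSD1, and 6.49% and 8.64% in NUP98-DDX10. Of 6 leukocyte and progenitor markers (Ptprc, Kit, Cd34, Mpo, Elane and Flt3), 4 fell and 1 rose, and their summed level was 65840 to 90360 untreated and 33970 to 40650 at day 5. The summed level of 10 neutrophil markers was 199000 to 251400 untreated and 625200 to 1071000 at day 5, and 6 of the 10 genes rose; that of 10 monocyte and macrophage markers was 37680 to 46570 untreated and 101600 to 123000 at day 5, and 9 of 10 rose. None of these markers was at 0 in either group. In NUP98-NSD1 the neutrophil sum was 41090 to 91850 untreated and 123400 to 287900 at day 5 (7 of 10 genes rose), and 4 of the 6 leukocyte and progenitor markers fell; in NUP98-DDX10 the neutrophil sums were 48510 to 65850 and 53500 to 90170 (0 of 10 passed) and 1 of the 6 fell. In NUP98-JARID1A at day 5, of 20 DNA replication genes 18 fell and 0 rose (median -0.84). Of 16 mitosis genes 3 fell, near the share of all features, and 0 rose. Myc, a transcription factor of growth genes, fell there (-1.48 ± 0.14, adjusted p = 1.92e-09). The part of these changes in the values of the pore genes was not tested. Over the mean of the 3 fusions at day 5, 22.6% of all features rose and 23.4% fell. In this mean 18 of the 20 DNA replication genes fell (Mcm7 -0.61 ± 0.05, adjusted p = 1.39e-10, Pole -0.67 ± 0.06, adjusted p = 7.37e-10). Of the 16 mitosis genes 3 rose (Ccnb2 0.26 ± 0.05, adjusted p = 0.000245), near the share of all features. Myc fell (-1.04 ± 0.08, adjusted p = 2.85e-11). Kit, the stem cell factor receptor, was at -2.48 (adjusted p = 4.49e-10), Cd34 at -2.30 (adjusted p = 0.000101), and the granule enzyme genes Mpo and Elane at -1.83 (adjusted p = 7.3e-07) and -1.56 (adjusted p = 2.1e-06). Of the other leukocyte and progenitor markers, Flt3 was at -0.82 (adjusted p = 0.00434), while Ptprc rose (0.67, adjusted p = 4.31e-09).

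**Figure D3:**
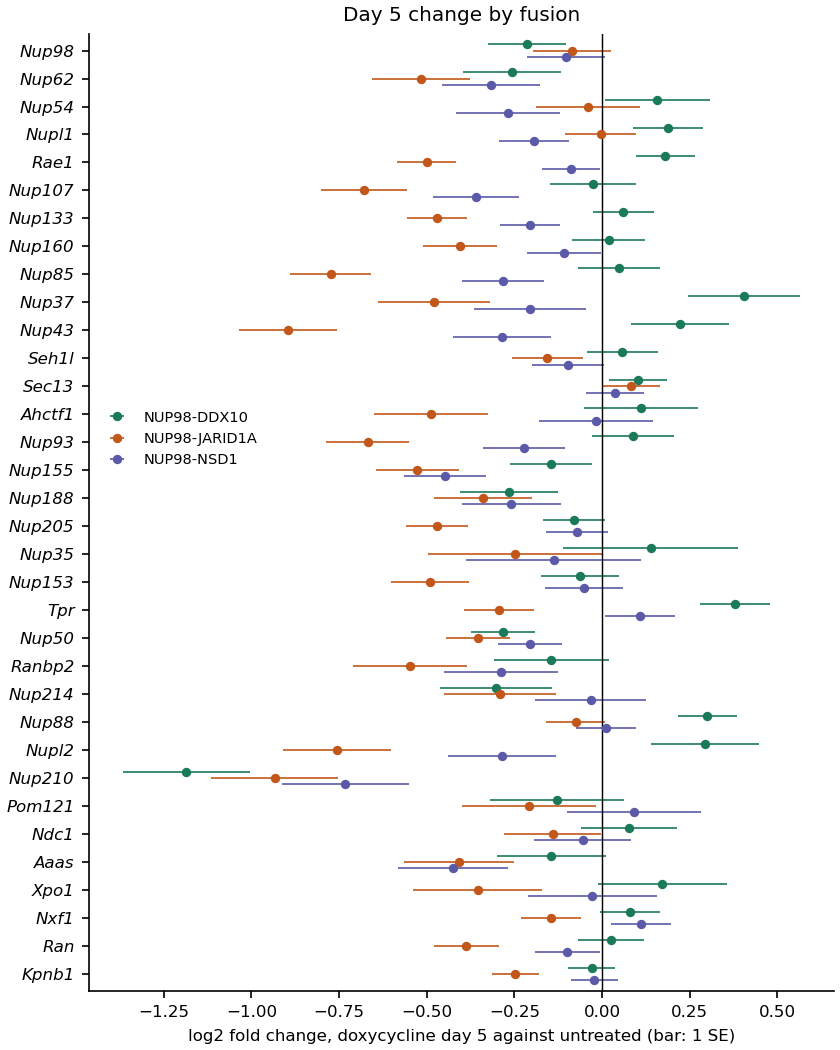
Log2 fold change at day 5 of doxycycline against untreated (x axis, bar 1 SE) for the 34 members in the 3 models (colours). NUP98-JARID1A points lie left of 0 for 33 of 34 members, NUP98-DDX10 points lie on both sides, and Nup210 is low in all 3 models.

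The day 5 change differed between fusions for 11 of 34 members by the F-test, a share not far from the 26.0% of all features. The 3 lowest adjusted p-values were those of Rae1 (0.000412), Nup43 (0.000547) and Nup85 (0.00182). Rae1 at day 5 was 1349, 1348 and 1297 in NUP98-DDX10, against 1068, 1218, 1158 and 1262 untreated, and 898, 881 and 986 in NUP98-NSD1, against 981, 974, 966 and 993. Its log2 fold changes were 0.18 ± 0.08 for NUP98-DDX10 and -0.09 ± 0.08 for NUP98-NSD1, neither past the threshold, and -0.50 ± 0.08 for NUP98-JARID1A. Nup43 had 0.22 ± 0.14 in NUP98-DDX10 and -0.28 ± 0.14 in NUP98-NSD1, also short of the threshold. For both genes all NUP98-DDX10 day 5 libraries lay above all untreated ones of that model. For Nup43 all NUP98-NSD1 day 5 libraries lay below the untreated ones. With a replicate block Nup107 (0.0563), Nup205 (0.0636) and Nup88 (0.108) no longer passed. The number of members past this F-test was 8 without NUP98-JARID1A day 5 replicate 3 and 19 without NUP98-JARID1A day 5 replicate 1. Over the means, Rae1 lost its day 5 call (-0.14 ± 0.05, adjusted p = 0.0227) without NUP98-JARID1A day 5 replicate 3 (adjusted p = 0.0544).

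Tpr, the long coiled-coil protein of the nuclear basket, changed in opposite directions. In NUP98-DDX10 it stood at 3331, 3383, 3725 and 3230.4 untreated and 4597, 4032 and 4724 at day 5, all above the untreated libraries, and it rose (0.38 ± 0.10, adjusted p = 0.0101). In NUP98-JARID1A it stood at 4053, 4179, 3739.8 and 4051 untreated, 2713, 3223 and 3539 at day 3 and 3939, 2943 and 2999 at day 5, and it fell at day 3 (-0.35 ± 0.10, adjusted p = 0.016) and day 5 (-0.29 ± 0.10, adjusted p = 0.0194); the day 5 and untreated ranges overlap. In NUP98-NSD1 its day 5 change was 0.11 ± 0.10. The difference between fusions passed at day 5 (F-test adjusted p = 0.00286). The rise in NUP98-DDX10 was not past the threshold without day 5 replicate 3 (adjusted p = 0.071). The fall in NUP98-JARID1A was not past it at day 3 without day 3 replicate 1 (adjusted p = 0.162), nor at day 5 without day 5 replicate 2 (0.131) or 3 (0.111), nor in the fits on the 7 libraries compared (0.0679 at day 3 and 0.11 at day 5). Tpr shares 2.79% of its exon bases with Odr4 and 2.69% with Prg4, both on the other strand. The second member that rose in NUP98-DDX10 at day 5 was Nup88, a partner of Nup214 at the cytoplasmic face, from 1852, 1979, 2064 and 2084 to 2554, 2324 and 2490.0 (0.30 ± 0.08, adjusted p = 0.0161). Its call ended with untreated libraries titled day 5 only (adjusted p = 0.0689), without the untreated library titled day 3 (adjusted p = 0.06), without day 5 replicate 1 (0.0725) and without day 5 replicate 3 (0.069). Nup50 was the other member besides Nup210 that fell there (-0.28 ± 0.09, adjusted p = 0.0362), and its call ended without any 1 of the day 5 libraries, without the untreated library titled day 3 and without untreated replicate 1 or 2 (highest adjusted p = 0.108).

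In NUP98-NSD1 at day 5, Nup155 (-0.45 ± 0.12, adjusted p = 0.00537), Nup107 (-0.36 ± 0.12, adjusted p = 0.031) and Aaas (-0.43 ± 0.16, adjusted p = 0.0459) fell beside Nup210. Nup155, an inner ring scaffold, went from 2415, 2083, 2404 and 2268 to 1754, 1569 and 1717, with every day 5 library below every untreated one. Nup107 lost its call with a replicate block (adjusted p = 0.0674), with untreated libraries titled day 5 only (0.0718), without the untreated library titled day 3 or untreated replicate 2, and without day 5 replicate 2 or 3 (highest adjusted p = 0.173). Aaas lost it without the filter (0.0624), with a replicate block (0.0762) and in 16 of the 33 fits that left out 1 library, among them each of the 7 NUP98-NSD1 libraries compared (highest adjusted p = 0.186).

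**Figure D4:**
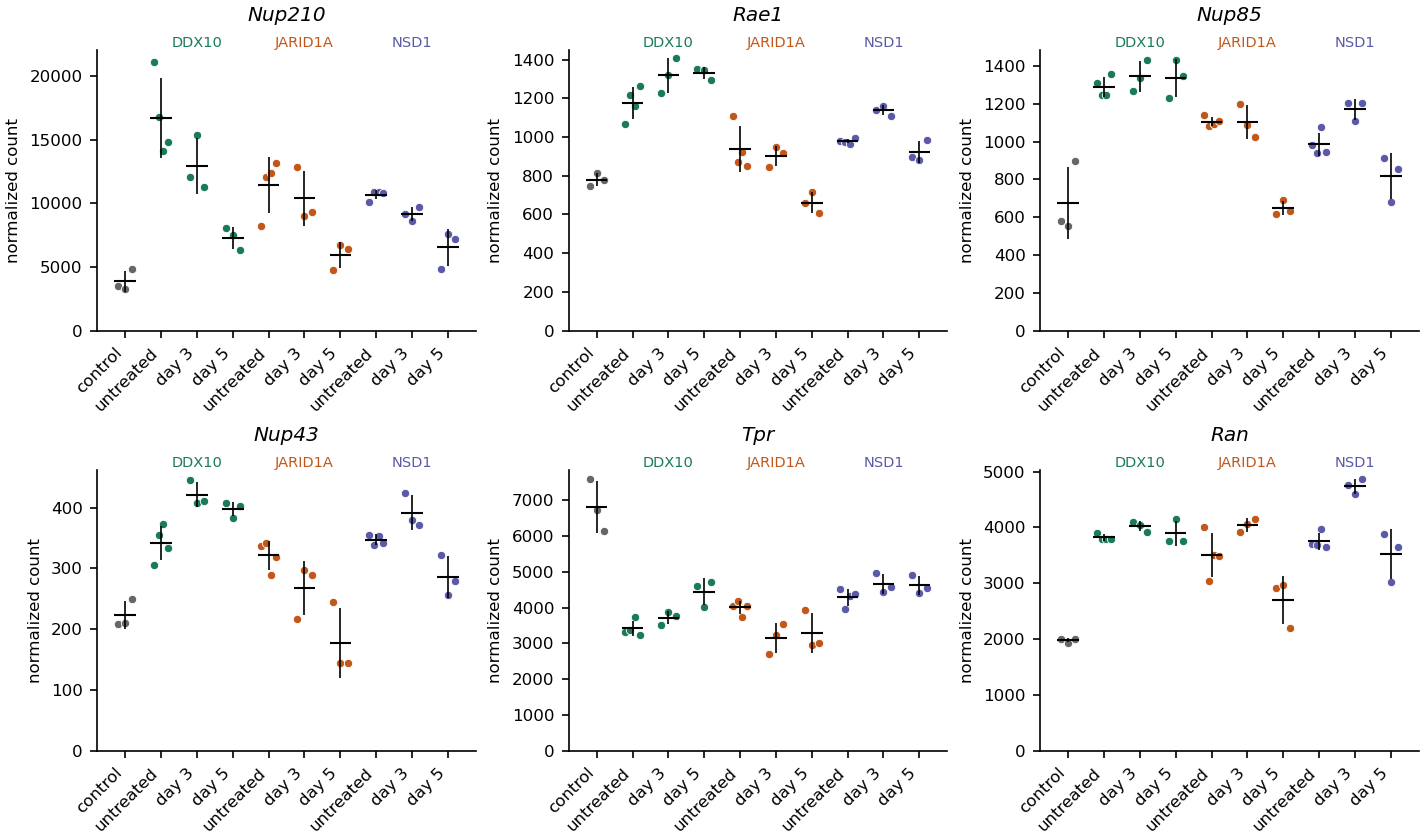
Normalized counts (linear axis from 0) of 6 members in all 33 libraries, 1 point per library, with the mean (bar) and SD (line) of each group. Nup210 falls in all 3 models, Rae1, Nup85 and Nup43 are lowest at day 5 of NUP98-JARID1A among the fusion groups, Tpr is highest in controls, and Ran is lowest in controls.

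At day 3, over the mean of the 3 fusions, 3 members rose and 0 fell, where 8.67% of all features rose and 9.91% fell: Nup88 (0.21 ± 0.05, adjusted p = 0.00325), Ran (0.21 ± 0.05, adjusted p = 0.0073) and Kpnb1 (0.11 ± 0.04, adjusted p = 0.0494). Kpnb1 kept its call in 7 of the 33 fits that left out 1 library, and lost it without the filter (adjusted p = 0.081), after quantile normalization (0.183), with a replicate block (0.105) and with untreated libraries titled day 5 only (0.118). The next 5 by p, all short of the threshold, were Ndc1 (0.22 ± 0.08), Sec13 (0.13 ± 0.05), Nupl1 (0.15 ± 0.06), Ranbp2 (-0.22 ± 0.09) and Rae1 (0.11 ± 0.05). Fitted on the untreated and day 3 libraries alone, 8 members rose and 1 fell, and DESeq2 on recovered reads had 6 higher and 0 lower. The count was 7 without control replicate 3, 6 without the untreated NUP98-JARID1A library titled day 3 and 5 without NUP98-JARID1A day 5 replicate 1. In NUP98-NSD1, 3 members rose and 0 fell (4.55% and 4.59% of all features): Nxf1 (0.34 ± 0.08, adjusted p = 0.0102), Ran (0.34 ± 0.09, adjusted p = 0.0212) and Ndc1, a membrane anchor of the pore (0.44 ± 0.14, adjusted p = 0.0426). Ran stood at 3709, 3687, 3971 and 3641 untreated and 4762, 4595 and 4862 at day 3, and Nxf1 at 2058, 1697, 1946 and 1797 and 2371, 2402 and 2332; in both genes the day 3 libraries were all higher. Ndc1 lost its call without the filter (adjusted p = 0.0595) and with a replicate block (0.0648). Fitted on the 7 libraries compared, 13 members rose and 2 fell, and by DESeq2 5 rose and 0 fell. This count was 5 without control replicate 3 and 1 without untreated NUP98-NSD1 replicate 3 or without any 1 of the 3 day 3 libraries. The shares of all features above are those of the full fit and not of the alternative fits.

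In NUP98-JARID1A at day 3, Sec13 rose (0.25 ± 0.08, adjusted p = 0.0378) and Tpr and Ranbp2 (-0.49 ± 0.16, adjusted p = 0.0399) fell (8.10% and 7.62% of all features rose and fell). Ranbp2 lost its call without the filter (adjusted p = 0.0557), after quantile normalization (0.0623), by edgeR (0.0522), with a replicate block (0.106) and with untreated libraries titled day 5 only (0.107). In the fit on the 7 libraries compared Sec13 (0.15) and Tpr (0.0679) lost theirs, as did Sec13 after quantile normalization (0.128). Without day 3 replicate 1 none of the 34 passed, and 1 passed without day 3 replicate 2 or without untreated replicate 1 or 3. In NUP98-DDX10, 0 rose and 0 fell by limma (0.134% and 0.962% of all features); edgeR and DESeq2 also called 0, and 3 members had an unadjusted limma p below 0.05. The day 3 change differed between fusions for 1 of 34 members, Tpr (F-test adjusted p = 0.0425; 7.08% of all features), which lost its call in 18 of the 33 fits that left out 1 library, and also without the filter (0.0604), after quantile normalization (0.0649), by edgeR (0.0709), with a replicate block (0.12) and with untreated libraries titled day 5 only (0.106). Nxf1 (adjusted p = 0.0534) and Nup43 (adjusted p = 0.136) followed.

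From day 3 to day 5, over the mean of the 3 fusions, 0 members rose and 19 fell (14.3% and 13.4% of all features). The 8 with the lowest p were Nup210 (-0.71 ± 0.11, adjusted p = 2.88e-05), Ran (-0.36 ± 0.06, adjusted p = 3.57e-05), Nup85 (-0.44 ± 0.07, adjusted p = 5.15e-05), Nup50 (-0.30 ± 0.06, adjusted p = 0.000274), Kpnb1 (-0.21 ± 0.04, adjusted p = 0.000431), Nup133 (-0.26 ± 0.05, adjusted p = 0.000524), Nup205 (-0.26 ± 0.05, adjusted p = 0.00067) and Rae1 (-0.25 ± 0.05, adjusted p = 0.000704). Nup98 changed by -0.08 ± 0.07, adjusted p = 0.443, above 30 of the 33 other members. Ran shows the course per model: in NUP98-JARID1A it was 4002, 3042, 3504 and 3494 untreated, 3914, 4067 and 4151 at day 3 and 2917, 2972 and 2202 at day 5, and in NUP98-NSD1 it was highest at day 3 and 3890.1, 3028 and 3645 at day 5. The day 3 and day 5 comparisons share the untreated libraries, and this one shares the treated libraries with both.

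Against the controls, most pore genes were higher in the untreated leukemias. Over the mean of the 3 fusions, 26 of 34 members were higher and 3 were lower past the threshold, where 31.8% of all features were higher and 38.9% lower. The members' median log2 difference was 0.50, against -0.09 for all features; quantile normalization moved these medians to 0.61 and 0.16, a shift in the median of all features of over 0.1. In single models the counts were 25 higher and 3 lower for NUP98-DDX10 (30.6% and 37.9% of all features), 24 and 2 for NUP98-JARID1A (31.4% and 38.0%), and 23 and 3 for NUP98-NSD1 (29.7% and 34.9%). These comparisons share the 3 control libraries. The erythroid, lymphoid and granulocyte marker lists were lower over the mean of the untreated leukemias: each of the tested markers passed (6 of 10 listed erythroid genes, with Hba-a1, Hba-a2 and Hbb-bt listed at 0 in the controls, and 10 genes each for B lymphocytes, T or NK lymphocytes and neutrophils). In NUP98-JARID1A alone 7 of the 10 neutrophil markers were lower past the threshold, and the part of these cells in the values of the pore genes was not tested.

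By role, the 4 pore membrane genes were all higher than in controls (median 1.15), led by Nup210 (1.72 ± 0.15, adjusted p = 1.01e-10) and Ndc1 (1.36 ± 0.12, adjusted p = 4.38e-11). Of the inner ring, 4 of 5 were higher (median 0.85), with Nup205 at 0.88 ± 0.07, adjusted p = 3.66e-11 and Nup188 at 1.11 ± 0.12, adjusted p = 3.22e-09. The Y complex had 8 of 9 higher (Nup133 1.01 ± 0.07, adjusted p = 1.62e-12) and Ahctf1 lower (-0.44 ± 0.14, adjusted p = 0.00554), whose call ended without control replicate 3 (adjusted p = 0.304). All 4 channel FG genes were higher. Nup62, which lines the central channel, stood at 616, 749.7 and 852 in controls, 2804, 2136, 1861 and 2125 in NUP98-DDX10, 2074, 2203, 2869.5 and 2829.9 in NUP98-JARID1A and 1279.6, 1469, 1408 and 1359 in NUP98-NSD1, with no overlap of any leukemia group with the controls (1.42 ± 0.12, adjusted p = 2.57e-11). Ran was also separate from its control range of 2008, 1933 and 2002 in all 3 models (0.90 ± 0.08, adjusted p = 8.32e-11). Nup98 was higher over the mean (0.32 ± 0.09, adjusted p = 0.00376); by model this was 0.14 ± 0.11 in NUP98-DDX10 (adjusted p = 0.287), 0.78 ± 0.11 in NUP98-JARID1A (adjusted p = 6.3e-07) and 0.04 ± 0.11 in NUP98-NSD1 (adjusted p = 0.758). The call for the mean ended without control replicate 2 (0.24, adjusted p = 0.0588), and the NUP98-DDX10 value passed without control replicate 3 (0.27, adjusted p = 0.0315).

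Besides Ahctf1, the lower members were Tpr and Nxf1. Tpr was 7597, 6743 and 6146 in controls and between 3230.4 and 4512 in untreated leukemias, a gap with no overlap (-0.81 ± 0.08, adjusted p = 2.24e-09). Nxf1 was 2499, 2552 and 3095 in controls and 2058, 1697, 1946 and 1797 in NUP98-NSD1, again without overlap (-0.38 ± 0.07, adjusted p = 3.34e-05). The untreated leukemias differed from each other for 20 of 34 members (F-test), against 69.8% of all features. The 3 lowest adjusted p-values were those of Sec13 (3.06e-07), Nup98 (8.63e-07) and Nup62 (5.59e-06). For Nup62 the NUP98-NSD1 group was lowest, at 1379 ± 80 (SD, n = 4), against 2232 ± 402 (SD, n = 4) in NUP98-DDX10 and 2494 ± 414 (SD, n = 4) in NUP98-JARID1A.

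Levels of different genes can be compared only per length. The labels name the maker of the library kit and not the kit, so whether counts scale with transcript length is not known; the order below holds only if reads came from whole transcripts. Per kilobase of exon, the mean over all 33 libraries was highest for Ran (1563 normalized counts per kilobase), Kpnb1 (1167), Nup210 (1151) and Sec13 (1039). Nup98 was at 346.9, beside Nup188 (363.8) and Nup37 (342.2), and Nup35 (32.8) and Nupl2 (36.2) were lowest. The length counts every annotated exon base of a gene, which for Nup93 (75.9) comes to 16759 bases against 2928 in its longest transcript.

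Over the 10 group means, the members most like Nup98 by Pearson's r of the log2 means were Nup214 (r = 0.87), which marks the cytoplasmic face, Pom121 (0.77), Nup188 (0.73), Aaas (0.63) and Nup62 (0.61). The least alike were Nup35 (-0.92) and Xpo1 (-0.84). These r values describe 10 groups of libraries that share their models and their normalization. Nup214 stood at 4613 ± 957 (SD, n = 4) in untreated NUP98-JARID1A, 3484 ± 741 (SD, n = 4) in NUP98-DDX10 and 2612 ± 108 (SD, n = 4) in NUP98-NSD1. Across the 34 members, the difference of untreated NUP98-JARID1A from the mean of the other untreated groups had r = 0.50 with the GC content of the longest transcript (35.7% to 57.6%), and across 12230 measured genes r = 0.11; genes are not independent replicates, and these values carry no test. With log2 transcript length the same difference had r = 0.49 across the members and 0.04 across the measured genes. Nup98 has a GC content of 47.5%, close to the members' median of 47.7%, and a longest transcript of 6694 bases.

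The wider transport machinery was followed in 49 further genes in 4 lists. At day 5 over the mean of the 3 fusions 1 of the 49 rose and 15 fell (22.6% and 23.4% of all features; median -0.08). Of the 7 genes of the Ran cycle 5 fell, led by Rcc2 (-0.44 ± 0.07, adjusted p = 5.58e-06), Ranbp1, which helps Ran hydrolyse GTP (-0.30 ± 0.06, adjusted p = 0.000191), and Rangrf (-0.62 ± 0.20, adjusted p = 0.0117). Of 6 exportins 3 fell: Xpo5, which exports microRNA precursors (-0.43 ± 0.05, adjusted p = 9.14e-08), Xpot, which exports transfer RNA (-0.21 ± 0.05, adjusted p = 0.00202), and Cse1l, which returns importin alpha to the cytoplasm (-0.19 ± 0.08, adjusted p = 0.047). Of 16 importins 4 fell and 1 rose, with Ipo5 (-0.23 ± 0.05, adjusted p = 0.000883), Ipo4 (-0.41 ± 0.10, adjusted p = 0.00146) and Ipo11 (-0.27 ± 0.07, adjusted p = 0.00254) the lowest in p. Of 20 messenger RNA export genes 3 fell: Mcm3ap (-0.26 ± 0.05, adjusted p = 7.86e-05), Ddx39b (-0.22 ± 0.05, adjusted p = 0.000422) and Gle1 (-0.17 ± 0.04, adjusted p = 0.00163). In NUP98-JARID1A alone, 1 of the 49 rose and 19 fell at day 5 (20.1% and 21.2% of all features; median -0.27). Against control, 31 of the 49 were higher and 8 lower over the mean of the untreated leukemias (31.8% and 38.9% of all features), and all 7 Ran cycle genes were among the higher.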

How the data were processed

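Messenger RNA libraries were made from sorted bone marrow cells with a stranded poly-A kit, per the labels' protocols. The submitters' processing notes name STAR, SAMtools, featureCounts and DESeq2 and the builds GRCm38 and mm10, without versions; whether counting used strand is not given in the sources used here. The deposited values have the unit signal: they are normalized counts, reads divided by 1 size factor per library, since 100% of values in every library are whole multiples of 1 step (within 0.01 reads). The 2 chromatin immunoprecipitation samples were not analysed here.

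Values were compared as log2(value + 1) with limma 3.58.1 (trend, R 4.3.3), 1 fit of 10 group means over 33 libraries, after a filter of at least 10 in 3 libraries that kept 12687 of 24462 features (12682 genes and 5 constructs). A fold change on this scale understates the change of low genes. Benjamini-Hochberg adjustment ran over all features kept, with 13 contrasts and 3 F-tests. Reads recovered from the steps were also tested with edgeR 4.0.16 and DESeq2 1.42.0. Other alternatives were other pseudocounts, no filter, quantile normalization, a replicate block, subsets of libraries and leaving out each library in turn. The fit was also run on simulated data with changes put in at day 5 alone. Only the mean of the 3 fusions, day 5 against untreated, was read from that run. It does not cover the other comparisons, and its outcome is not given here. Same-numbered libraries were checked for shared deviations from their group means: in NUP98-JARID1A untreated against day 5 all 3 correlations were over 0.1 (0.141, 0.167 and 0.237), so the replicate block is given beside that comparison. Within groups, the 39 pairs of libraries differed by more than counting noise (chi-square per degree of freedom 6.62 to 361). The members, the gene lists and the named-gene rule (Nup98 throughout, the 8 members with the smallest adjusted p in each mean comparison, the 3 in each F-test, up to 3 genes per pathway list, the 5 members most and 2 least like Nup98) were chosen with earlier results of these data known. Members that passed in a single model are named in addition, chosen after their values were seen. Gene positions, exon lengths and promoters come from RefSeq, GRCm38.p6.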

Additional observations from a re-analysis of the deposited data

Results flagged for a closer look

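Of 105 groups of 4 untreated libraries examined (34 members and each model's own fusion feature), 4 held a library far from the other 3 by Dixon's test; chance alone gives about 1 in 20 groups. Nup155 was 1971 normalized counts in untreated NUP98-JARID1A replicate 2, against 2262 to 2292 in the others. Nup210 was 10131 in the untreated NUP98-NSD1 library titled day 3, against 10841 to 10886. Nxf1 was 2418 in untreated NUP98-JARID1A replicate 1, against 2109 to 2158. Ran was 3905 in the untreated NUP98-DDX10 library titled day 3, against 3785 to 3798.

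The doxycycline effect differed between fusions for Tpr at day 3 (F-test adjusted p = 0.0425, limma). At day 5 it differed for Rae1 (adjusted p = 0.000412), Nup43 (0.000547), Nup85 (0.00182), Nupl2 (0.00262), Tpr (0.00286), Nup93 (0.00415), Nup133 (0.00661), Nup37 (0.0127), Nup107 (0.0191), Nup205 (0.0235) and Nup88 (0.0437). For all 11 the NUP98-JARID1A log2 fold change at day 5 was the lowest of the 3 models.

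The table holds a feature for NUP98-HOXA9, a fusion that no label names. It had 0 counts in all 3 controls, a mean of 13.5 normalized counts in untreated NUP98-JARID1A libraries (8.09 to 21.7) and a mean of 7.1 in untreated NUP98-NSD1 libraries (4.18 to 9.39). Untreated NUP98-DDX10 libraries held 7.1, 2.3, 4.9 and 5.7. At day 5 of doxycycline it was 1.8, 2.0 and 0.0 in NUP98-JARID1A and 2.2, 0.0 and 1.0 in NUP98-NSD1. In NUP98-DDX10 at day 5 it was 2.2, 7.5 and 0.0. The source of these reads was not tested.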

How the results depend on the processing

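The members checked in each comparison were Nup98, those named by rank and those past the threshold in the full fit. None reversed sign under an alternative run where either fit passed the threshold. Changes of sign short of the threshold were not counted. Other pseudocounts (0.5 and 10) changed no call among the members checked. Of the 34 members, fits on only the libraries of the groups compared passed 1 in NUP98-DDX10 at day 3, 7 at day 5, 1 in NUP98-JARID1A at day 3, 10 at day 5 (21 in the full fit), 15 in NUP98-NSD1 at day 3 (13 higher and 2 lower), 10 at day 5, 9 in the day 3 mean (8 higher and 1 lower) and 8 in the day 3 F-test. Quantile normalization passed 1 in NUP98-JARID1A at day 3, 10 in NUP98-NSD1 at day 5 and 0 in the day 3 F-test, and gave Nup98 a day 5 mean of -0.24, past the threshold. DESeq2 on recovered reads passed 5 in NUP98-NSD1 at day 3, 6 in the day 3 mean and 2 in the day 3 F-test, where edgeR and the fit without a filter passed 0. With untreated libraries titled day 5 only, 2 passed in NUP98-DDX10 at day 5 and 0 in the day 3 F-test. Means taken over the other fusions, added after seeing the data, passed 7 without NUP98-JARID1A at day 5, 7 at day 5 against day 3, and 1 at day 3 without NUP98-NSD1. The causes were not tested. For none of the alternative fits is the share of all features called given, so these counts have no background beside them.

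Replicate numbers are shared between groups, but 5 of 27 correlations of same-numbered deviations were over 0.1 (-0.38 to 0.25), and only the 3 of NUP98-JARID1A untreated against day 5 were all over it. Those of NUP98-NSD1 untreated against day 5 were 0.135, 0.0096 and 0.247. Whether same-numbered libraries share an animal is not known from the labels. With a replicate block 2 members passed in NUP98-NSD1 at day 5 (4 without it) and 0 in the day 3 F-test; no other count moved by over 1.5 times. Leaving out 1 library at a time gave 1 to 5 members in NUP98-DDX10 at day 5, at day 3 a range of 0 to 3 in NUP98-JARID1A but 1 to 5 in NUP98-NSD1, in the latter 2 to 6 at day 5, 2 to 7 in the day 3 mean, and 0 to 3 and 8 to 19 in the day 3 and day 5 F-tests. For Nup98 it gave -0.16 to -0.11 in the day 5 mean and 0.24 to 0.46 for untreated against control. With 3 or 4 libraries a group, small changes of single members can go unseen.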

Other observations

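Genes next to Nup98 were looked at after its level in the NUP98-JARID1A leukemias was seen. Within 500 kb of Nup98 on chromosome 7, 17 other genes were measured. In untreated libraries 12 of the 17 were higher in NUP98-JARID1A than in the mean of the other models, with a median log2 difference of 0.39 and a range of -0.58 to 2.02. The same difference was 0.69 for Nup98 and had a median of -0.0042 over all features. Among the neighbours, Stim1, a calcium sensor of the endoplasmic reticulum, was at 1.11, Rhog, a small GTPase, at 0.87, Pgap2, which overlaps Nup98 on the other strand, at 0.50, and Rrm1, a subunit of ribonucleotide reductase, at 0.20. The neighbours that were lower were Inppl1 (-0.58), Lrrc51 (-0.49), Trim21 (-0.11), Xndc1 (-0.08) and Rnf121 (-0.02). Xndc1 and Rnf121 are the nearest measured genes on the side of Nup98 away from Pgap2. These differences are descriptions and were not tested as a group.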
